A study of Rattus norvegicus with 6 samples.

Results

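The NF-kB subunits and their IkB inhibitors were examined in CD163+ brain macrophages after cerebral ischemia. The family was taken as 10 genes chosen by name: *Nfkb1*, *Nfkb2*, *Rel*, *Rela* and *Relb*, which encode the subunits, the classical inhibitors *Nfkbia*, *Nfkbib* and *Nfkbie*, and the nuclear IkB genes *Nfkbiz* and *Nfkbid*. Of these 10 genes, 8 were named by a probe set annotated with 1 gene, among 14217 genes named in all. *Rel* and *Nfkbie* were not analysed here. The 8 genes had 9 probe sets, 2 of them for *Nfkbiz*, and all 8 were among the 9928 genes that passed the filter on low signal.

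The ischemic group comprised 3 adult male Sprague-Dawley rats (64, 65 and 66) in which the middle cerebral artery of the right side had been occluded for 1 h and reperfused for 16 h. The control group comprised 3 non-ischemic rats of the same strain, sex and age class (63, 68 and 69). Controls had no sham operation in the study's account, so that occlusion and surgery cannot be told apart. CD11b+CD163+ cells, the perivascular and meningeal macrophages that the study calls border-associated macrophages (BAMs), were sorted from the right hemisphere, and 1 rat gave 1 Affymetrix rat genome array. The gate takes any CD11b+ cell with surface CD163, whether resident or newly arrived. The study judged most of these cells resident, as its flow cytometry at 16 h showed a CD163+ population like that of controls. It also found a small share of granulocytes among the sorted ischemic cells. All values below are log2 values that the authors obtained with RMA, in which 1 unit is a doubling of the signal, and differences are ischemia minus control.

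NF-kB proteins are dimers of Rel-family subunits that bind kB sites in DNA. In resting cells the classical IkB proteins hold them in the cytoplasm. Signals from toll-like and cytokine receptors activate the IkB kinase complex, which marks IkB for degradation and lets the dimers enter the nucleus, where they raise the transcription of inflammatory genes and of several of their own inhibitors. The nuclear IkB proteins act differently, as they bind dimers on chromatin and raise or restrain particular target genes. In macrophages this system is among the first to respond to microbial products and tissue damage. An array reads the transcripts only, not the breakdown of IkB or the movement of the dimers.

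Several family genes carry kB sites in their own promoters. To show these sites, RefSeq promoter windows of the GRCr8 rat assembly, 250 bases before to 50 bases after the start of transcription, were searched on both strands for the kB consensus motif, which has 10 letters. It was found in 2515 of 33469 windows (7.51%). Of the 8 measured genes, 7 had a window in the table (*Relb* had none), and 4 held the motif, printed below in capitals within 30 bases read 5′ to 3′ along each gene. A match is a description of the letters and does not show binding in these cells.
Nfkb1, chr2:226805440-226805469, minus strand, capitals from 4 to 13 bases after the start: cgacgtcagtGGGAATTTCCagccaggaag
Nfkb2, chr1:255108344-255108373, plus strand, capitals from -20 to -11 relative to the start: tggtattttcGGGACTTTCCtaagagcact
Nfkbia, chr6:78597084-78597113, minus strand, capitals from -31 to -22 relative to the start, matched on the opposite strand: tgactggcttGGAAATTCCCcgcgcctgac
Nfkbiz, chr11:58251698-58251727, plus strand, capitals from -13 to -4 relative to the start: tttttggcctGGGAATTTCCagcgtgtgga
*Nfkb1* and *Nfkbiz* held the same 10 letters, and so did *Nfkbia* when read on the strand that matched. The windows of *Rela* and *Nfkbib* and the 4 windows of *Nfkbid* held no match, which says only that these letters were not in these windows.

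After ischemia *Nfkbid* fell to 9.76 ± 0.38, against 11.14 ± 0.21 in control (mean ± SD, n = 3 each), a log2 fold change of -1.38 (SE 0.21). The other 7 genes did not pass the test. *Relb* and *Nfkb1* had the highest estimates, 0.78 (SE 0.26) and 0.61 (SE 0.22), with adjusted p-values of 0.0445 and 0.0548. Genes were called at a two-sided adjusted p under 0.01 in limma, a linear model whose variances are moderated across genes, after Benjamini-Hochberg adjustment over the 9928 genes tested. By this rule 0 of the 8 genes rose, against 16.8% of all genes, and 1 of 8 fell, against 5.99%. In either direction 22.8% of all genes were called. At an unadjusted p under 0.05 the counts were 2 higher and 1 lower, that is 3 of 8, against 50.5% of all genes. At an adjusted p under 0.05 *Relb* was also called, making 1 of 8 higher and 1 of 8 lower, against 27.4% and 13.9% of all genes (41.3% in either direction). None of the 8 changed by more than 2 log2 units. With a change beyond 2 log2 units required in addition, 220 of the 9928 genes (2.22%) were called, against 2259 by adjusted p alone. The study states this added threshold, but reports far more genes than passed it here. Its counts lie nearer to the calls by adjusted p alone. The cause of this difference was not tested.

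**Figure D1:**
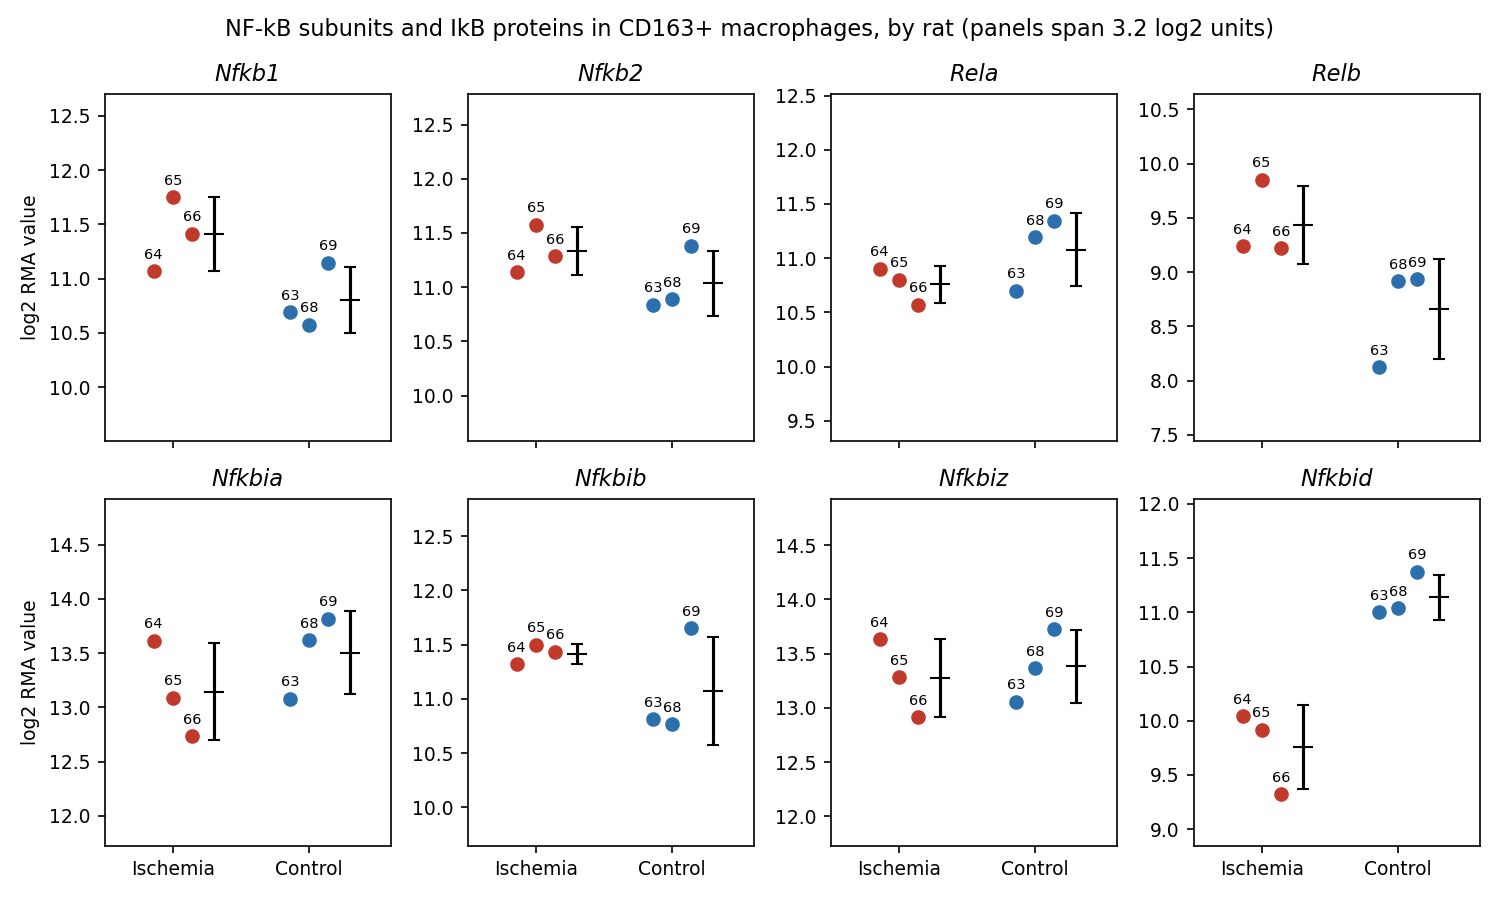
Log2 RMA value (vertical axes) of the 8 measured genes in the 3 ischemic rats (red, left in each panel) and the 3 control rats (blue, right), labelled by rat number. Black marks show the mean and SD of each group, and every panel spans 3.2 log2 units, so distances can be compared between panels but heights cannot. The groups do not overlap for *Relb*, higher after ischemia, and *Nfkbid*, lower after ischemia.

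Among the subunits, *Nfkb1* encodes a precursor that is processed to a DNA-binding subunit without an activating domain. Its values were 11.07, 11.75 and 11.41 in ischemic rats 64, 65 and 66, against 10.69, 10.57 and 11.15 in control rats 63, 68 and 69. Ischemic rat 64 lay below control rat 69, so the groups overlapped, while the other 2 ischemic rats lay above all controls. The mean was 11.41 ± 0.34 after ischemia and 10.80 ± 0.30 in control, and the 95% confidence interval of the difference was 0.11 to 1.11. On a linear scale this was 1.52-fold, with an interval of 1.08 to 2.15.

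*Nfkb2* encodes the precursor processed in the alternative, noncanonical pathway. It had 11.14, 11.58 and 11.29 in the ischemic rats and 10.84, 10.89 and 11.38 in the control rats. Control rat 69 lay above ischemic rats 64 and 66. The difference was 0.30 (SE 0.19, interval -0.14 to 0.73, adjusted p = 0.239 by limma), within the spread of the rats, and it ranged from 0.18 without ischemic rat 65 to 0.47 without control rat 69.

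*Relb*, the partner of the processed *Nfkb2* product in the noncanonical pathway, had 9.24, 9.85 and 9.22 in the ischemic rats, against 8.12, 8.91 and 8.93 in the control rats. Every ischemic rat lay above every control rat. Non-overlap in this direction was seen in 35.7% of all genes. The mean was 9.44 ± 0.36 after ischemia and 8.66 ± 0.46 in control, 1.72-fold on a linear scale, with a log2 interval of 0.17 to 1.38. Ischemic rat 65 was high within its group and control rat 63 low within its own. Without ischemic rat 65 the difference was 0.57 (adjusted p = 0.147 by limma), and without control rat 63 it was 0.51 (adjusted p = 0.105).

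*Rela* encodes the activating subunit of the most common dimer. It had 10.90, 10.80 and 10.57 in the ischemic rats and 10.70, 11.19 and 11.35 in the control rats. The 2 controls other than rat 63 lay above all ischemic rats, and rat 63 lay among them. The difference was -0.32 (SE 0.19, interval -0.76 to 0.12, adjusted p = 0.209 by limma). Without control rat 63 it was -0.51 (adjusted p = 0.0369), and without control rat 69 it was -0.19 (adjusted p = 0.497).

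The classical inhibitor *Nfkbia* encodes IkB-alpha, which is itself induced by NF-kB and ends the response in a feedback loop. It had 13.61, 13.09 and 12.73 in the ischemic rats and 13.08, 13.62 and 13.82 in the control rats. Both groups spanned about the same levels and overlapped. The mean was 13.14 ± 0.44 after ischemia and 13.50 ± 0.38 in control, a difference of -0.36 (SE 0.26, interval -0.96 to 0.25, adjusted p = 0.303 by limma). The size of this difference depended on single rats, with -0.15 without ischemic rat 66, -0.20 without control rat 69, -0.57 without control rat 63 and -0.59 without ischemic rat 64, none past the test.

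*Nfkbib* encodes IkB-beta, a second cytoplasmic inhibitor. The ischemic rats had 11.32, 11.50 and 11.44 and lay close together (SD 0.091), whereas the control rats had 10.81, 10.77 and 11.65 (SD 0.50). Control rat 69 lay above every ischemic rat and the other 2 controls below every ischemic rat. The difference was 0.34 (SE 0.23, interval -0.20 to 0.88, adjusted p = 0.273 by limma). Without control rat 69 it was 0.63 (adjusted p = 0.0164), without control rat 68 it was 0.19 (adjusted p = 0.58) and without control rat 63 it was 0.21 (adjusted p = 0.548). In the RefSeq annotation *Nfkbib* shares 7571 bases with LOC103689966 on the opposite strand, for which no probe set was used here. Whether LOC103689966 contributes to the *Nfkbib* probe set was not tested.

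The nuclear IkB gene *Nfkbiz* encodes IkB-zeta, which in mouse macrophages is needed for the induction of a subset of secondary inflammatory genes. Its brighter probe set read 13.63, 13.28 and 12.92 in the ischemic rats and 13.06, 13.36 and 13.73 in the control rats. The groups covered nearly the same range. The difference was -0.11 (SE 0.23, interval -0.63 to 0.42, adjusted p = 0.734 by limma). The second probe set had 8.50, 8.43 and 8.44 in the ischemic rats and 8.11, 8.50 and 8.41 in the control rats, a difference of 0.12 (adjusted p = 0.529 by limma over all probe sets). Neither passed the test, and the 2 probe sets had opposite signs.

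*Nfkbid* encodes IkBNS, a nuclear IkB protein that in mouse macrophages restrains the expression of certain inflammatory genes. It had 10.04, 9.92 and 9.32 in the ischemic rats, against 11.00, 11.04 and 11.37 in the control rats. All 3 ischemic rats lay below all 3 control rats, a separation in this direction that 19.9% of all genes showed. With *Relb*, 2 of the 8 family genes had groups that did not overlap, against 55.6% of all genes. The gap between the highest ischemic rat and the lowest control rat was larger than the range within either group. The fall of 1.38 log2 units had an interval of -1.86 to -0.89 and an adjusted p of 0.00202 (limma), and on a linear scale the level was 0.385-fold that of control (interval 0.275 to 0.539). A called fall of this size or larger was found in 198 genes, 1.99% of those tested. Leaving out each rat in turn gave -1.52 to -1.16 with adjusted p-values of 0.00165 to 0.00867, past the test in 6 of 6 cases. The call was lost with an ordinary linear model without moderation (adjusted p = 0.0327), under which 0 of 9928 genes were called and 4478 had an unadjusted p under 0.05.

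The 3′ end of *Nfkbid* shares 397 bases with *Aplp1*, an amyloid precursor-like gene on the opposite strand (RefSeq, GRCr8). The labelling made double-stranded targets, so reads of the 2 genes there cannot be told apart. *Aplp1* itself had 8.27, 8.48 and 9.44 in the ischemic rats and 10.66, 9.40 and 9.02 in the control rats. Its groups overlapped, with a difference of -0.96 (SE 0.45, adjusted p = 0.118 by limma). Control rat 63, the highest for *Aplp1*, was the lowest control for *Nfkbid*, a position it held for 59.8% of all genes. Whether *Aplp1* contributes to the *Nfkbid* probe set was not tested.

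**Figure D2:**
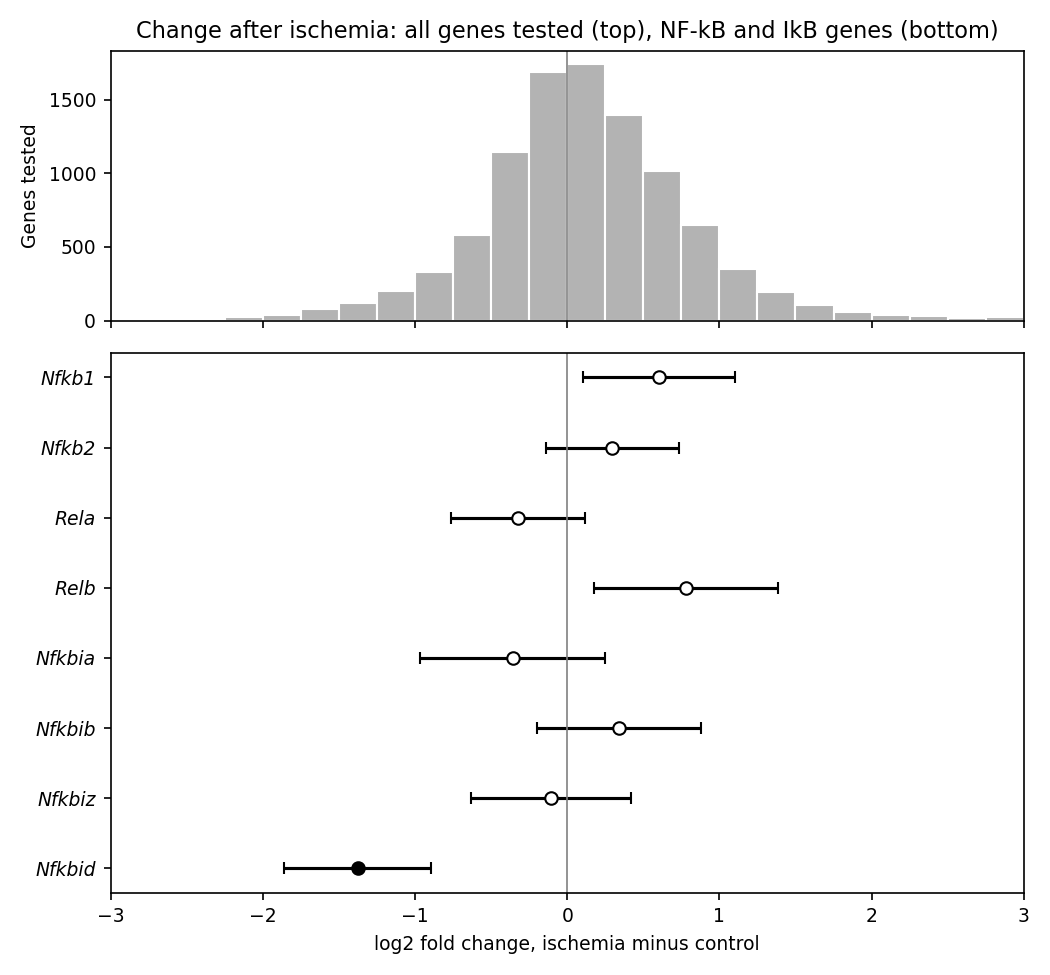
Top, number of genes tested (vertical axis) by log2 fold change, ischemia minus control (horizontal axis, shown between -3 and 3). Bottom, log2 fold change of the 8 genes with its 95% confidence interval from limma, filled where the adjusted p was under 0.01. *Nfkbid*, at -1.38, lies in the left tail of all genes, and the intervals of 5 of the other 7 genes include 0.

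Set against the other family genes within each rat, *Nfkbid* was lower after ischemia, by a difference of -1.02 log2 units relative to *Nfkbia*, the nearest, and of -2.16 relative to *Relb*, the farthest. *Nfkbid* was singled out for this after its values had been seen, so these are descriptions with no test. The median log2 fold change was 0.096 over the 8 genes and 0.10 over all genes tested, and the median size of the change without its sign was 0.35 in the family and 0.38 over all genes.

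The family genes varied more between rats of 1 group than most genes did. The median SD was 0.35 in the ischemic group, against 0.15 over all genes tested, and 0.34 in the control group, against 0.19. This spread followed particular rats. Control rat 69 was the highest control for 8 of 8 family genes, a position it held for 34.1% of all genes, and control rat 63 was the lowest for 6 of 8, against 59.8% of all genes. In the ischemic group rat 64 was highest for *Nfkbia*, *Nfkbid*, *Nfkbiz* and *Rela* (40.6% of all genes), and rat 65 for *Nfkb1*, *Nfkb2*, *Nfkbib* and *Relb* (25.2% of all genes). Ischemic rat 66 was lowest for 5 of 8, namely *Nfkbia*, *Nfkbid*, *Nfkbiz*, *Rela* and *Relb* (34.9% of all genes). The 8 genes share their array in each rat and are not independent of each other.

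**Figure D3:**
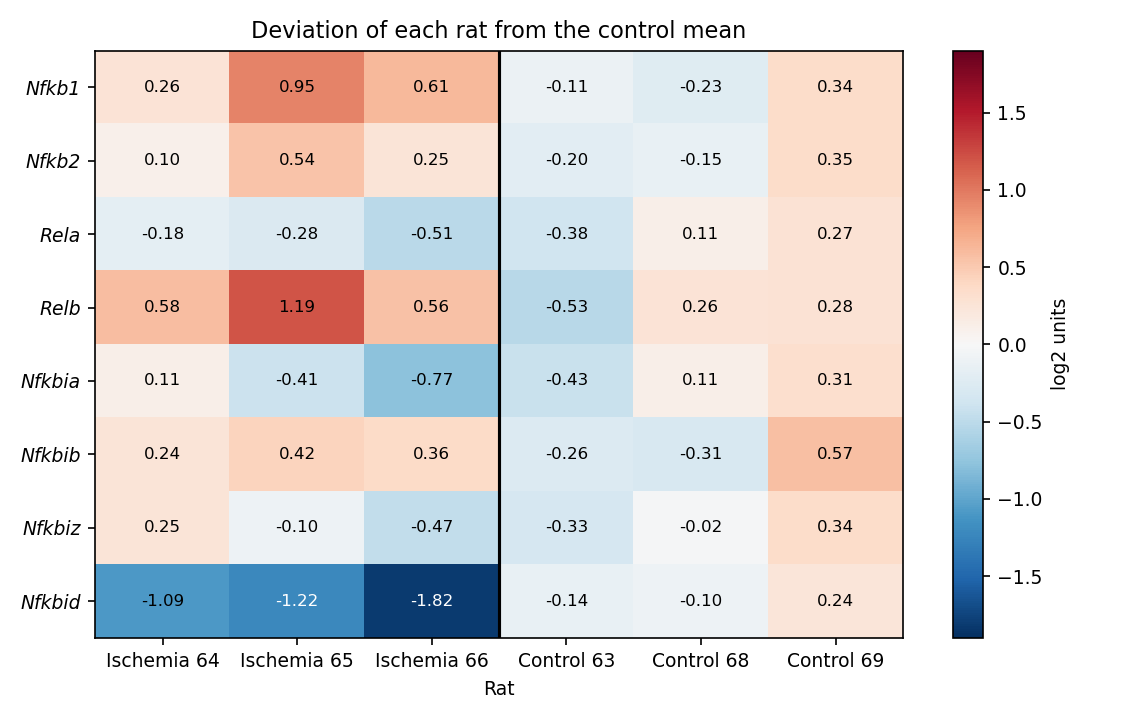
Deviation of each rat (columns, ischemic rats left of the line and control rats right) from the control mean for the 8 genes (rows), in log2 units, red above and blue below. Control rat 69 is above the control mean in all 8 rows, and *Nfkbid* is the row in which the 3 ischemic rats deviate most, by -1.09, -1.22 and -1.82.

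Control rat 63 stood apart from the other arrays. Its highest value was 13.88, against 14.98 to 15.03 in the other 5. The mean level of 6 endothelial markers was 10.15 there, against 7.82 to 7.99 in the ischemic rats and 7.39 and 7.81 in the other controls. Rat 63 was also highest for astrocyte (9.27, against 7.61 to 8.64) and oligodendrocyte markers (10.68, against 8.19 to 9.81). The same held for neuronal markers (6.94, against 6.35 to 6.61), most of which lay within background. Without this rat *Nfkbid* changed by -1.44 (adjusted p = 0.00762 by limma). The array medians were 7.82 to 7.90. The 3′ minus 5′ signal of actin, a sign of RNA integrity, was 0.17 to 0.24 in ischemic and 0.058 to 0.073 in control rats. For *Gapdh* this signal was 0.75 to 0.80 in ischemic and 0.52 to 0.65 in control rats. The study selected RNA of high measured integrity for all its arrays. As to the labelled cell type, all 8 BAM markers measured were above background in both groups, and *Cd163* had 14.11, 14.02 and 13.38 in the ischemic rats and 12.63, 13.86 and 13.41 in the control rats. *Cd163* had the 1 positive difference among these markers (0.54, adjusted p = 0.211 by limma). The other 7 were negative, from -0.0091 for *Lyve1* to -1.95 for *Colec12*, which was called lower, and the median over the 8 was -0.53. The mean BAM marker level was 13.43, 13.11 and 12.69 in ischemic rats 64, 65 and 66 and 13.03, 13.97 and 13.87 in control rats 63, 68 and 69. Monocyte markers (7 of 9 measured) had a summed level of 77.2 to 80.0 in the ischemic rats and 69.3 to 70.7 in the control rats, with *Ly6al* within background in both groups. Of the 6 monocyte markers tested, 4 were called higher (66.7%, against 16.8% of all genes). These were *Ly6c* (4.68, control mean within background), *Itgam* (2.24), *Plac8* (1.31) and *Cd14* (0.91), while *Ccr2* (0.43) and *F13a1* (-0.77) did not pass. Granulocyte markers (6 of 10 measured) summed to 44.8 to 48.5 and 39.4 to 41.3, with *Camp* and *Mmp8* within background in both. Of the 4 granulocyte markers tested, 1 was called higher (25%, against 16.8% of all genes), *S100a8* (3.36, control mean within background). *S100a8* passed the filter on low signal through the ischemic rats alone, so 3.36 is a difference from background. *S100a9* (2.19), *Csf3r* (0.93) and *Cxcr2* (-0.50) did not pass the test. Markers of other brain cells went in both directions. Of the astrocyte markers, *Gfap* was called higher (2.07, adjusted p = 0.00563 by limma), and the median over the 5 tested was 0.13. The medians were -0.075 over the 4 endothelial and -0.020 over the 3 neuronal markers tested, with none called. The 6 oligodendrocyte markers tested had a median of -1.58 and summed to 49.1 to 54.3 in the ischemic rats and 55.9 to 64.1 in the control rats, and *Mbp* (-1.83) and *Mobp* (-1.93) were called lower. The 6 microglial markers measured summed to 52.3 to 57.3 and 56.9 to 58.9, with *P2ry12* (-1.78) called lower and *Gpr34* at -1.71 (adjusted p = 0.0122). *Tmem119* (0.61), *Slc2a5* (0.26) and *Sall1* (-0.13) did not pass the test, and the median over the 5 microglial markers tested was -0.13. The part of these differences in the *Nfkbid* and *Relb* values was not tested. In sorted bulk cells, fewer cells of a type and less RNA per cell cannot be told apart.

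The genes upstream and downstream of the family were examined as 4 lists. Of the kinases, adaptors and ubiquitin ligases of the activating pathways, which include some that restrain a branch, 30 of 35 were tested, 3 rose (10%, against 16.8% of all genes) and 27 did not pass, with a median log2 fold change of 0.15, against 0.10 over all genes. *Traf3*, an adaptor that restrains the noncanonical pathway, rose by 1.18 (SE 0.21, adjusted p = 0.00396 by limma), with 8.87, 9.41 and 9.39 in the ischemic rats and 7.69, 8.32 and 8.12 in the control rats. *Irak1*, a kinase downstream of toll-like receptors, rose by 0.80 (SE 0.14, adjusted p = 0.00319). *Chuk*, a catalytic subunit of the IkB kinase complex, rose by 0.76 (SE 0.12, adjusted p = 0.00241), with 11.15, 11.18 and 11.05 in the ischemic rats against 10.47, 10.33 and 10.30 in the control rats. In all 3 genes, which were picked by their calls, every ischemic rat lay above every control rat. This separation was seen in 10 of the 30 genes tested in this list and in 35.7% of all genes. The other catalytic subunit, *Ikbkb*, had a difference of -0.34 (SE 0.13, adjusted p = 0.0674), and *Ikbkg* was not analysed here. Of the brightest genes that did not pass, *Skp1* and *Cul1*, parts of the ligase that marks IkB for degradation, had 0.33 and 0.011, and *Birc3* had 0.14. *Rbck1*, of the linear ubiquitin ligase and named after its values were seen, had -0.70 (adjusted p = 0.0111) and was called lower in several other settings. The 3 calls depended on single rats: without ischemic rat 65 the adjusted p was 0.0189 for *Traf3*, 0.0185 for *Irak1* and 0.0164 for *Chuk*, without control rat 69 it was 0.0126, 0.0101 and 0.0105, without ischemic rat 66 it was 0.0159 for *Traf3* and 0.0136 for *Irak1*, and without control rat 63 it was 0.0126 for *Traf3*.

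Of the negative regulators and further ankyrin proteins, 18 of 22 were tested, 2 rose (11.1%, against 16.8% of all genes) and 16 did not pass (median 0.14). *Tnip2*, a partner of the deubiquitinase A20, had 11.23, 11.35 and 11.03 in the ischemic rats, against 9.99, 10.07 and 10.31 in the control rats. The groups were far apart, and the rise of 1.08 (SE 0.15, adjusted p = 0.00134 by limma) was past the test without any single rat. *Nkrf*, which encodes the NF-kB repressing factor, rose by 1.23 (SE 0.19, adjusted p = 0.00215), and by 1.07 without ischemic rat 65 (adjusted p = 0.0112). *Tnfaip3*, which encodes A20 and is a standard NF-kB target, had 13.75, 13.62 and 13.21 in the ischemic rats and 13.14, 13.44 and 13.82 in the control rats, a difference of 0.061 (adjusted p = 0.837) with overlapping groups. The nuclear IkB-like gene *Bcl3* had 0.14 (adjusted p = 0.472), *Tax1bp1* 0.12 and *Commd1* 0.20.

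Of the nuclear cofactors, 12 of 17 were tested, 2 rose (16.7%, against 16.8% of all genes), 1 fell (8.33%, against 5.99%) and 9 did not pass (median 0.060). The acetyltransferase gene *Kat2b* fell by 0.75 (SE 0.15, adjusted p = 0.0064 by limma). *Smarcb1*, of a chromatin remodelling complex, rose by 0.69 (SE 0.15, adjusted p = 0.00827), and the deacetylase gene *Hdac1* rose by 0.66 (SE 0.15, adjusted p = 0.00972). Each of these 3 calls was lost without 5 of the 6 rats, the exceptions being ischemic rat 64 for *Kat2b* and *Hdac1* and control rat 68 for *Smarcb1*, with adjusted p-values of up to 0.0317, 0.0337 and 0.0484 in the order named. *Crebbp* and *Ep300*, the coactivators that *Rela* recruits, had -0.51 (adjusted p = 0.0308) and -0.16 (adjusted p = 0.448), and the corepressor gene *Ncor1* had -0.32 (adjusted p = 0.11). *Crebbp* was called lower with ribosomal protein centring (-0.94), quantile normalization repeated (-0.68) and array weights (-0.67).

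Of 41 known target genes, 34 were tested, 9 rose (26.5%, against 16.8% of all genes), 1 fell (2.94%, against 5.99%) and 24 did not pass, with a median of 0.16, against 0.10. The list includes *Nfkbia* and 3 genes that also stand in the lists above, and it was not tested as a list. *Il1rn*, which encodes the interleukin-1 receptor antagonist, had 12.75, 14.09 and 14.07 in the ischemic rats, against 9.95, 10.38 and 10.27 in the control rats. The lowest ischemic rat was more than 2 log2 units above the highest control rat, and the rise was 3.43 (SE 0.34, adjusted p = 0.000468 by limma). *Mmp9*, a gelatinase, had 7.89, 10.24 and 8.59 in the ischemic rats, against 5.99, 5.57 and 6.58 in the control rats, all 3 of which lay under the background level of 7.75. It passed the filter on low signal through the ischemic rats alone, and taken against that level it was at least 2.23-fold higher after ischemia (means 8.91 and 6.05, adjusted p = 0.00474). *Ptgs2*, the inducible cyclooxygenase, rose by 1.81 (SE 0.37, adjusted p = 0.00677), the survival gene *Bcl2l1* by 1.43 (SE 0.24, adjusted p = 0.0028), *Il1a* by 1.39 (SE 0.14, adjusted p = 0.000526) and the mitochondrial superoxide dismutase gene *Sod2* by 1.38 (SE 0.25, adjusted p = 0.00374). *Il1rn*, *Bcl2l1* and *Il1a* were past the test without any single rat. The adjusted p of the other 3 exceeded 0.01 without 4 rats each and reached 0.0231 for *Mmp9* without control rat 68, 0.0241 for *Ptgs2* without ischemic rat 65 and 0.0177 for *Sod2* without control rat 68.

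The remaining called targets, named after their values were seen, were *Csf1* (1.25), *Cflar* (0.92) and *Bcl2a1* (0.81), which rose, and *Marcksl1* (-0.98, adjusted p = 0.00481 by limma), the 1 that fell. Of these, *Cflar* was past the test without any single rat. *Csf1* lost its call without 4 rats (highest adjusted p 0.0183, without ischemic rat 65), *Bcl2a1* without 5 (0.0251, without ischemic rat 65) and *Marcksl1* without 4 (0.0179, without control rat 68). Among the brightest targets, *Cd83* had 14.44, 14.37 and 13.88 in the ischemic rats and 13.60, 14.57 and 14.62 in the control rats. The groups overlapped, with a difference of -0.034 (adjusted p = 0.934). *Cxcl2* and *Il1b*, a neutrophil chemokine and a cytokine that are early NF-kB targets, had 0.16 (adjusted p = 0.601) and 0.15 (adjusted p = 0.493). *Cd83*, *Cxcl2* and *Il1b* read near the highest value of an array, 13.88 in control rat 63 and 14.98 to 15.03 in the other arrays. *Tnfaip3*, *Nfkbia* and the brighter *Nfkbiz* probe set were nearly as bright. Whether differences at this height were compressed was not tested.

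**Figure D4:**
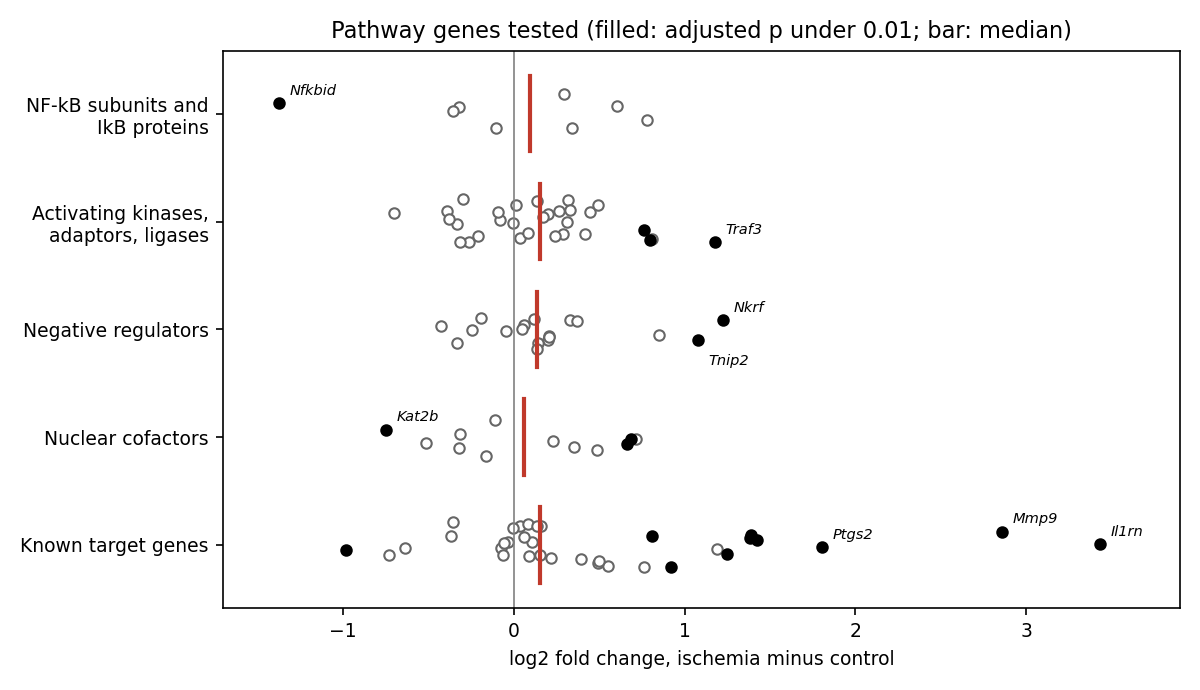
Log2 fold change, ischemia minus control (horizontal axis), of each gene tested in the family and in the 4 pathway lists (rows), filled where the adjusted p was under 0.01 and with a red bar at the median. The medians lie between 0.060 and 0.16, and the calls spread to 3.43 (*Il1rn*) among the targets, whereas the call in the family is *Nfkbid* at -1.38.

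Scaling moved all values alike. With the mean of 42 ribosomal protein genes set equal in all arrays, the median over all genes was -0.32, a shift of -0.43. The differences became 0.18 for *Nfkb1*, -0.13 for *Nfkb2*, 0.35 for *Relb*, -0.75 for *Rela*, -0.79 for *Nfkbia*, -0.086 for *Nfkbib* and -0.53 for *Nfkbiz*, none of them past the test, while *Nfkbid* was -1.80 and was called. Positive differences smaller than the shift, those of *Nfkb2* and *Nfkbib*, changed sign with it. Of the pathway genes named above, 12 lost their call with this scaling while their differences stayed positive, namely *Traf3* (adjusted p = 0.0204 by limma), *Irak1* (0.201), *Chuk* (0.311), *Nkrf* (0.0134), *Tnip2* (0.0391), *Smarcb1* (0.392), *Hdac1* (0.486), *Ptgs2* (0.0112), *Il1a* (0.0118), *Csf1* (0.0198), *Cflar* (0.114) and *Bcl2a1* (0.222).

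**Figure D5:**
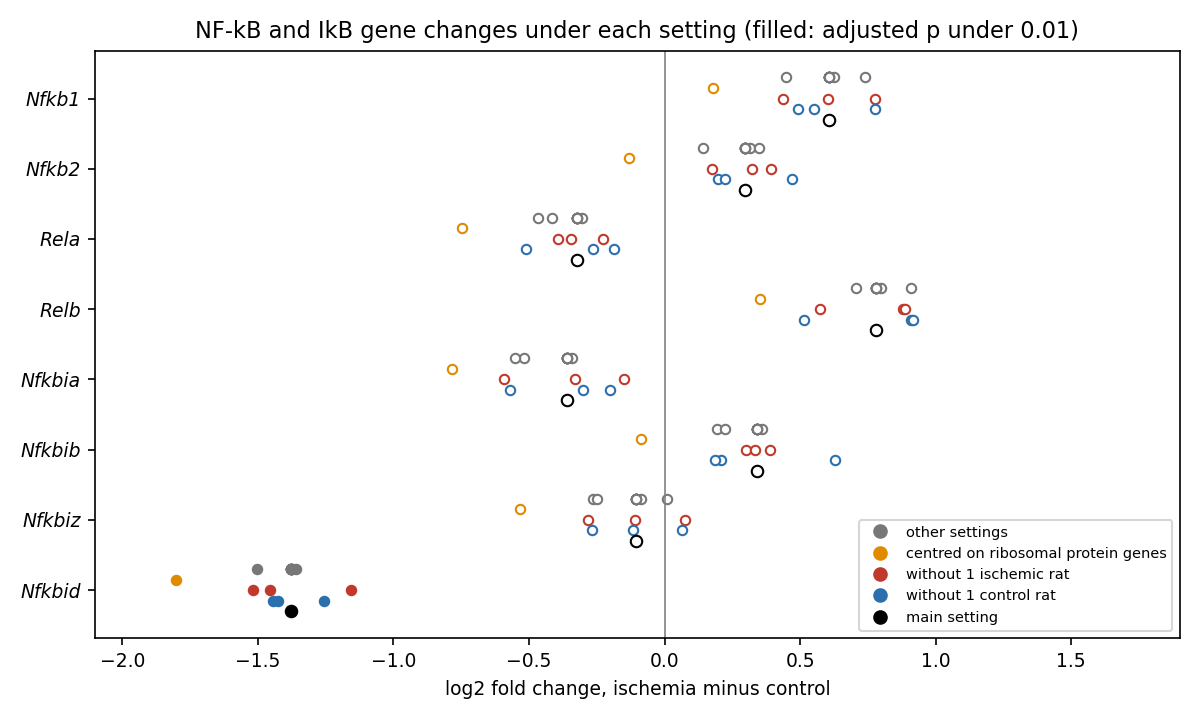
Log2 fold change, ischemia minus control (horizontal axis), of the 8 genes (rows) in the main setting, without 1 rat of either group, with ribosomal protein centring and with the other settings, filled where the adjusted p was under 0.01. *Nfkbid* lies between -1.80 and -1.16 in every setting and is open in 1 of them (no moderation, at -1.38, hidden behind filled points), and the points of the other 7 genes are all open.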

How the data were processed

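RNA of CD11b+CD163+ cells of 6 rats, 3 ischemic and 3 control, was hybridized to 6 Affymetrix rat genome arrays. The authors ran RMA (background correction, quantile normalization and probe summary), and the log2 values they deposited for 31099 probe sets were used unchanged. The submitters' processing notes name limma 3.18 and R 3.3.1. The array annotation gives 1 symbol to 20826 probe sets, several to 436 and none to 9780, and it names no genome build. The gene IDs of all 8 measured genes were found in the RefSeq table.

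Where a gene had several probe sets, its brightest by mean over the 6 arrays stood for it. A gene entered the test if its value was above 7.16 on 3 or more arrays, which is the 40th percentile after removal of the 57 control probe sets. The comparison used limma 3.58.1 in R 4.3.3 (lmFit, then eBayes). Rats were the replicates and were not paired. An exact permutation test of 3 against 3 cannot go below 0.1. Precision is limited by the number of rats, as arrays have no read depth. Background was the 90th percentile (7.75) of 27 genes of other tissues. The fit was tested on simulated data, in which 34 of 67 added rises of 1 log2 unit (50.7%) were called. For 2 and 4 log2 units the shares were 83.6% and 98.5%. The simulation left 9728 of 9928 genes unchanged, whereas 22.8% of genes were called in the data. These shares therefore do not give the power of the comparison.

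The family and the lists were chosen with earlier results of these data known. Named were all family genes, from each list up to 6 called genes by size of change and the 3 brightest that were not called, with *Chuk*, *Ikbkb*, *Ikbkg* and *Bcl3* always named. Alternatives covered the filter, probe set choice, scaling, moderation, array weights, thresholds and leaving out each rat.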

Additional observations from a re-analysis of the deposited data

How the results depend on the processing

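The 6 results without 1 rat each gave 0 family genes higher and 1 lower, *Nfkbid*. At an adjusted p under 0.05, 1 family gene was higher, *Relb* (0.78, adjusted p = 0.0445 by limma). No family gene was called lower (0) without moderation, where *Nfkbid* stayed at -1.38 with an adjusted p of 0.0327, or with the study's added fold threshold, which -1.38 does not reach. Of the other family genes, *Nfkb2* (-0.13) and *Nfkbib* (-0.086) reversed with ribosomal protein centring, and *Nfkbiz* reversed with the mean of its probe sets (0.0071) and ranged from -0.28 to 0.075 without single rats. The pathway lists held 18 genes past the test, against 9 with ribosomal protein centring (6 of the 18 and 3 others, all lower), 0 without moderation, 2 with the fold threshold and 6 to 18 without single rats. Single calls were lost with no low-signal filter (*Hdac1*, *Smarcb1*, *Mmp9* and *Ptgs2*), with quantile normalization repeated (*Hdac1*, *Smarcb1*, *Ptgs2* and *Bcl2a1*), with robust moderation (*Mmp9* and *Ptgs2*), with the 60th percentile filter (*Mmp9*), with the mean of the probe sets (*Traf3*) and with a low-variability filter or median centring (*Hdac1*). By list, the calls without single rats were 0 to 3 higher and 0 to 1 lower for kinases, adaptors and ligases, 1 to 3 higher for negative regulators, 0 to 1 higher and 0 to 1 lower for cofactors, and 4 to 8 higher and 0 to 1 lower for targets. Some genes not past the test reversed. With ribosomal protein centring these were *Skp1* (-0.098), *Cul1* (-0.42), *Birc3* (-0.29), *Tnfaip3* (-0.37), *Tax1bp1* (-0.31), *Commd1* (-0.22), *Bcl3* (-0.29), *Cxcl2* (-0.27) and *Il1b* (-0.27). With quantile normalization repeated they were *Cul1* (-0.14), *Birc3* (-0.017), *Tnfaip3* (-0.10), *Tax1bp1* (-0.039), *Cxcl2* (-0.097) and *Il1b* (-0.10), and with array weights *Cul1* (-0.093), *Tnfaip3* (-0.023) and *Cxcl2* (-0.044). Without single rats *Cul1* ranged from -0.077 to 0.18, *Birc3* from -0.23 to 0.53, *Tnfaip3* from -0.10 to 0.24, *Tax1bp1* from -0.018 to 0.22, *Cd83* from -0.37 to 0.14 and *Cxcl2* from -0.10 to 0.31. Over all genes 2259 were called, against 847 to 2380 without single rats, 3683 with array weights, 4099 at an adjusted p under 0.05, 220 with the fold threshold and 0 without moderation (4478 at an unadjusted p under 0.05). The share of calls that were higher was 73.7%, against 23.1% with ribosomal protein centring and 60.1% with quantile normalization repeated. The cause of these differences was not tested. No paired analysis was possible because the rat numbers are not shared between the groups.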
